A study of Oncorhynchus mykiss with 60 samples.

Results

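In rainbow trout (Oncorhynchus mykiss), 255 genes took a larger share of the reads at the animal pole than at the vegetal pole of the embryo 1 day after fertilization, and a smaller share at the animal pole than at the vegetal pole at 3 days. Each egg or embryo sample had been sliced from the animal to the vegetal pole into 5 sections, with A the most animal and E the most vegetal, and a library was made from every section. The genes were chosen by their CPM, the count of a gene per 1000000 counts of its library, averaged over replicates. R, the log2 of mean section A over mean section E after adding 1 CPM to each, had to be at least 0.75 at 1 day post fertilization (1 dpf) and -0.75 or less at 3 dpf, with a mean section A level of at least 10 CPM at 1 dpf. These conditions were met by 255 of 23471 features (1.09%), hereafter the members. The same 1 dpf conditions alone were met by 5263 genes, of which the members are 4.85%, and 3472 of those 5263 genes still had an R of 0.75 or more at 3 dpf. Since sections A and E at 1 dpf and 3 dpf chose the members, their values in those libraries are given as a description without a test.

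The libraries compared were of 0 hours post fertilization (0 hpf, n = 3 replicates), 1 hpf (n = 2), 1 dpf (labelled as early blastula of up to 64 cells, n = 3) and 3 dpf (mid-blastula, about 1000 cells, n = 3), each replicate cut into its 5 sections. The 0 hpf labels name both unfertilized eggs and zygotes just after fertilization, and those of 1 hpf both an egg of 1 cell and early cleavage, so stages are called by their times. No strain, genotype, parentage or treatment is given for any stage, and a section holds all the cells and yolk cut with it. Replicates are separate samples by their labels only, and the p-values rest on the spread between them, part of which may be technical. The 55 libraries held 1.09 to 14.46 M counts (median 4.60 M), and 3 counts, the least taken as detection, were worth 0.207 to 2.75 CPM. Of the members, 73 carried a trout gene symbol and 117 were named after their zebrafish ortholog, while 65 had no name and were only counted. In the RefSeq table of assembly USDA_OmykA_1.1, 254 members were protein-coding and 1 was a long non-coding RNA, and a single pair of members, snrka and topaz1, were neighbours in the order of measured genes.

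A fish egg is loaded by the mother with RNA that directs development until the embryo's own genome is switched on. Its cytoplasm gathers at the animal pole as a disc that cleaves into the blastoderm, above a yolk that does not cleave, and some maternal RNAs are held at the vegetal side, among them determinants of the dorsal axis and of the germ line. During the blastula stages many maternal RNAs are destroyed in the blastoderm while new transcripts accumulate there. Salmonid genomes kept many gene pairs from a whole-genome duplication, and the members can be read beside their duplicate copies.

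The members shared a slope from animal to vegetal from the earliest stage and a low level in section A at 3 dpf. Their median level in sections A, B, C, D and E was 50.7, 47.6, 39.6, 31.6 and 24.9 CPM at 0 hpf. At 1 hpf it was 54.4, 48.7, 32.3, 28.4 and 28.3 CPM, and at 1 dpf 51.4, 48.5, 27.1, 24.7 and 23.4 CPM. The slope at 0 hpf was gradual, whereas at 1 dpf sections A and B lay near one level and C, D and E near another. At 3 dpf the medians were 10.8 CPM in A and 27.9, 26.6, 24.9 and 24.6 CPM in B to E. Section A was the lowest of the 5 sections in all 255 members at 3 dpf. The rule requires this only against E, but with B to E near a common level it leaves little room for another lowest section. The highest section was B for 94 members, C for 59, D for 47 and E for 55. At 3 dpf the members thus had their lowest level in A, while no single other section held the highest level for most of them.

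**Figure D1:**
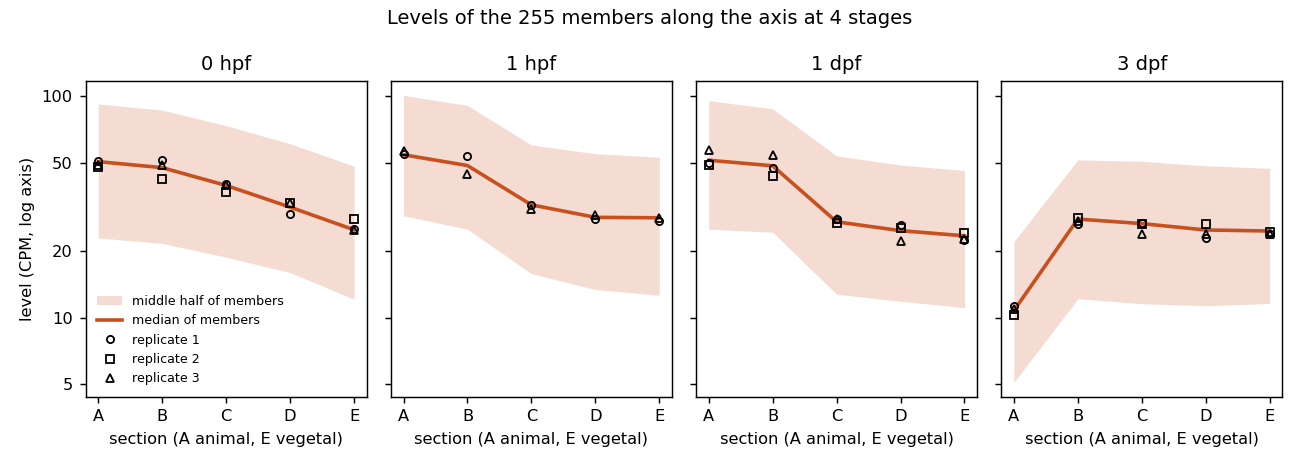
Levels of the 255 members in the 5 sections (horizontal axis) at 0 hpf, 1 hpf, 1 dpf and 3 dpf, in CPM on a log axis. The line is the median of the members' mean levels, the band runs between their quartiles and the symbols are the members' medians in each replicate; section A has a median of 51.4 CPM at 1 dpf and 10.8 CPM at 3 dpf.

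The sign of R was shared by the replicates for most members. The median R of the members was 0.86, 0.93, 0.97 and -1.04 over the stages from 0 hpf to 3 dpf, where all features had 0.13, 0.19, 0.31 and 0.01. At 3 dpf the median R was -1.01, -1.20 and -0.97 in replicates 1 to 3, against 0.99, 0.89 and 1.17 at 1 dpf. R was below 0 in all 3 replicates of 3 dpf for 243 members and above 0 in all 3 of 1 dpf for 253. The rule used the means of these replicates and so favours shared signs, and no share of all features is given beside these counts. Replicate 3 of 1 dpf had the steepest slope and replicate 2 the least steep. The members differed among themselves in R from -2.53 to -0.75 at 3 dpf and from 0.75 to 2.20 at 1 dpf, with quartiles of -1.25 and -0.88 at 3 dpf and 0.84 and 1.18 at 1 dpf.

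The difference between the stages lay in section A, less in B and hardly in E. Between the stages the log2 change (3 dpf minus 1 dpf, of mean CPM + 1) had a median over the members of -2.07 in A, -0.81 in B, -0.08 in C, -0.01 in D and 0.04 in E. Over all features the same medians were -0.34, -0.10, -0.03, -0.0024 and -0.01. The members' mean level in A was a median of 4.68-fold lower at 3 dpf than at 1 dpf, and in 253 of 255 members every 3 dpf value in A lay below every 1 dpf value. The rule used these libraries and so favours such a separation, and no share of all features with it is given here. In section E, 246 members differed between the stages by 0.5 or less on the log2 scale, 9 were higher at 3 dpf by more and 0 were lower by more. With a median of -0.01 in E over all features, little change there is not shown to be particular to the members. Together the members made up 0.379% to 0.445% of the counts of section A at 3 dpf and 1.87% to 2.13% at 1 dpf, and 0.921% to 0.958% of section E at 3 dpf against 0.877% to 0.97% at 1 dpf. In section B they made up 0.998% to 1.06% at 3 dpf and 1.68% to 1.99% at 1 dpf. A lower level in A was not limited to the members. Of 14759 genes at 10 CPM or more in A at 1 dpf, 4122 were lower there at 3 dpf by at least as much as the least-changed member (log2 -1.07), and 2505 of these had an R between -0.75 and 0.75 at 1 dpf. In bulk sections, fewer cells of a type and less RNA per cell cannot be told apart, and CPM gives shares of a library, not amounts of RNA.

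**Figure D2:**
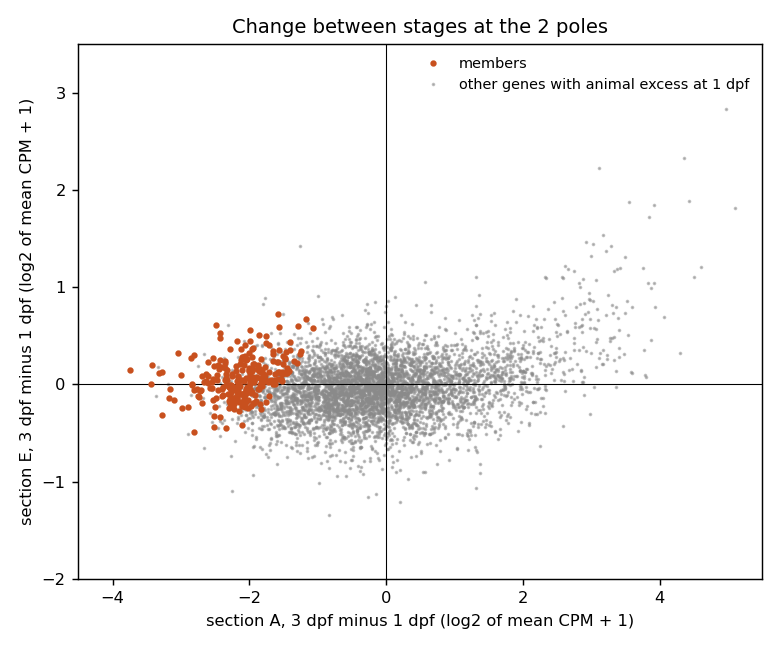
Log2 change of section A (horizontal axis) and of section E (vertical axis), 3 dpf minus 1 dpf, for the members (orange) and for the 5008 other genes with animal excess at 1 dpf (grey). The members lie to the left, with a median of -2.07 in A, and close to 0 on the vertical axis, with a median of 0.04 in E. The rule fixes only that the change in A minus the change in E is strongly negative, not how it is shared between the sections.

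Markers of the embryonic cell layers were at higher levels in section A at 3 dpf than at 1 dpf. The summed level of 21 features from 12 marker genes of the deep cells of the blastoderm was 2916 to 3666 CPM in A at 3 dpf and 683 to 915 CPM at 1 dpf. In E the same sum was 526 to 631 CPM at 3 dpf and 499 to 509.8 CPM at 1 dpf. The 12 features from 8 markers of the enveloping layer, the outer sheet of the blastoderm, summed to 621 to 803 CPM in A at 3 dpf and 249 to 529 CPM at 1 dpf. The 11 features from 8 markers of the yolk syncytial layer, the nucleated layer on the yolk surface, summed in section B to 518 to 1598 CPM at 3 dpf and 85.01 to 139.9 CPM at 1 dpf, and in A to 478 to 806 CPM at 3 dpf and 76.5 to 118 CPM at 1 dpf. The 11 features from 7 markers of primordial germ cells summed to 470.4 to 519 CPM in A at 3 dpf and 418 to 455.8 CPM at 1 dpf, and in E to 1209 to 1316 CPM at 3 dpf and 1169 to 1228 CPM at 1 dpf. In E at 1 dpf the enveloping layer markers also summed to 185 to 201 CPM and those of the yolk syncytial layer to 101 to 136 CPM. Such sums are levels of RNA and do not show that the cells were present. No measured feature carried the name of a listed follicle or blood marker, but 10067 of 23471 features had no name. The 1 liver marker found had at most 24.1 CPM in A at 3 dpf and 6.88 CPM at 1 dpf. The 2 sperm markers found summed to 7.04 to 14.4 CPM in A at 3 dpf and 8.45 to 13.4 CPM at 1 dpf. None of the 255 members is a marker in these lists. The part of any change of composition in the members' lower level in A was not tested. Under TMM scaling, which sets the bulk of genes level between libraries, the members' median change in A was -1.71 and in E 0.05, and all 255 kept the sign of R at both stages. The thresholds were then met by 78 genes, all of them members, and the median R of all features at 1 dpf was 0.03 under TMM where it was 0.31 under library totals.

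The 12 named members with the largest decrease in R between the stages were boka, klf6a, tshz2, hook1, slc44a4, slc25a46, si:ch1073-416j23.1, prdm2a, traf4a, tent5c, slc9a1b and fbxo34. Boka (LOC110508964), a Bcl-2 family protein that promotes cell death, had 9.57, 7.12 and 6.86 CPM in A at 3 dpf (replicates 1 to 3), against 105, 103 and 145 CPM at 1 dpf. In E it had 42.5, 46.5 and 61.3 CPM at 3 dpf and 39.3, 51.5 and 45.2 CPM at 1 dpf. Every 3 dpf value in A lay far below every 1 dpf value, a 15.00-fold difference of means, while those in E overlapped, and R was -2.53 at 3 dpf and 1.36 at 1 dpf. Klf6a, a zinc finger transcription factor of the Krüppel-like family, had 18.1, 17.4 and 17.2 CPM in A at 3 dpf and 164, 169 and 261 CPM at 1 dpf. Its values in E overlapped, at 60.8, 54.8 and 97.8 CPM at 3 dpf and 47.01, 53.8 and 84.6 CPM at 1 dpf. Tshz2 (LOC110532613), a teashirt zinc finger protein, was 12.1-fold lower in A, with 10.4, 6.72 and 5.75 CPM at 3 dpf and 81.98, 86.1 and 110.0 CPM at 1 dpf. Hook1 (LOC110521604), which links cargo to microtubule motors, had 3.48, 0.791 and 1.85 CPM in A at 3 dpf and 22.1, 34.2 and 31.7 CPM at 1 dpf. The lowest of these, in replicate 2 of 3 dpf, came from the shallowest of the 3 A libraries (2.53 M counts) and rests on few reads.

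Transporters and a ubiquitin ligase subunit were among them. Slc44a4 (LOC110496108), a choline transporter-like protein, had 4.35, 1.98 and 4.26 CPM in A at 3 dpf and 36.6, 28.3 and 63.4 CPM at 1 dpf, and an R of -2.51 at 3 dpf and 0.89 at 1 dpf. Slc25a46 (LOC110523880), a mitochondrial outer membrane protein that shapes the mitochondrial network, had 5.87, 5.93 and 3.52 CPM in A at 3 dpf and 53.9, 55.8 and 38.4 CPM at 1 dpf. In E it ran from 19.8 to 41.4 CPM at 3 dpf and from 21.5 to 29.1 CPM at 1 dpf, with replicate 3 lowest at both stages. Slc9a1b, a sodium and proton exchanger, had 9.57, 11.1 and 11.7 CPM in A at 3 dpf and 60.5, 51.9 and 82.4 CPM at 1 dpf. Its E values did not overlap between the stages either, at 23.04, 21.2 and 18.5 CPM at 3 dpf and 12.5, 15.8 and 11.8 CPM at 1 dpf. E values were apart in this direction for 18 members and in the opposite one for 2. No share of all features is given beside these counts, so they are not read as a result about the members. Fbxo34 (LOC110505797), an F-box subunit of ubiquitin ligases, had an R of 2.18 at 1 dpf, second among these 12 to the 2.20 of slc9a1b, with 29.4, 18.2 and 36.9 CPM in A at 3 dpf and 268, 245 and 272 CPM at 1 dpf. Traf4a (LOC110507756), a signalling adaptor, and prdm2a, a PR-domain zinc finger protein, were 9.74-fold and 7.27-fold lower in A at 3 dpf. The uncharacterized gene si:ch1073-416j23.1 was 7.68-fold lower.

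**Figure D3:**
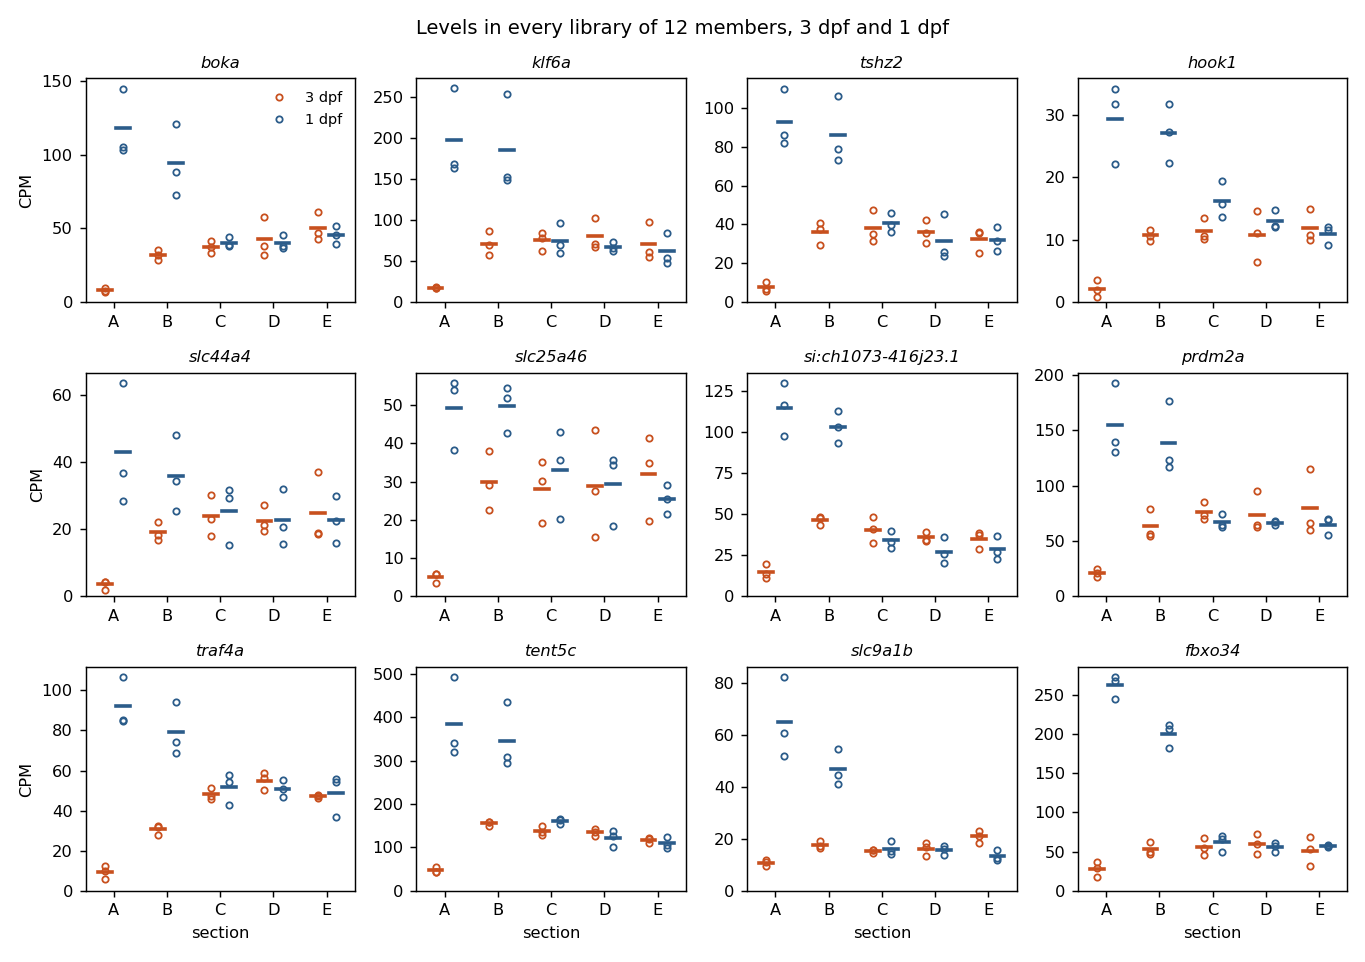
Levels in CPM of the 12 members with the largest decrease in R, by section, at 3 dpf (orange, left of each pair) and 1 dpf (blue); circles are single libraries (n = 3 each) and bars their means. In each panel the A points of 3 dpf lie below the A points of 1 dpf, B is lower too, by less, and the points of D overlap in all 12, those of C in 10 and those of E in 11.

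The members with the most reads are described next, and like all members they meet the rule. CPM is not per length, so levels are compared within a gene only. Plk3 (LOC110530313), a polo-like kinase of the cell cycle and stress response, had 179, 136 and 125 CPM in A at 3 dpf, against 676, 715 and 719 CPM at 1 dpf, and in E 419, 461 and 394 CPM at 3 dpf against 402, 492 and 307 CPM at 1 dpf. In section B it stood at 573, 688 and 482 CPM at 3 dpf and 696, 689 and 759 CPM at 1 dpf, with 3 dpf just below 1 dpf, and this difference did not pass the test (log2 -0.22, SE 0.18, adjusted p = 0.506, edgeR). Both measured copies of tent5c, whose mammalian protein adds poly(A) to mRNA, are members. The copy LOC110520418 had 106, 71.2 and 83.2 CPM in A at 3 dpf and 466, 511 and 587 CPM at 1 dpf, and the copy under the trout symbol tent5c had 53.96, 43.9 and 43.9 CPM at 3 dpf and 319.9, 341 and 493 CPM at 1 dpf. Snx5, a sorting nexin of endosomes, averaged 63.5 ± 18.9 CPM in A at 3 dpf (SD, n = 3), against 316 ± 36.01 CPM at 1 dpf. Dact1, a regulator of Wnt signalling that binds Dishevelled, had 45.6 ± 14.9 CPM at 3 dpf and 309 ± 51.7 CPM at 1 dpf. Topaz1, a germ-cell protein in mammals, had 72.4 ± 7.57 CPM at 3 dpf and 286 ± 13.1 CPM at 1 dpf. The levels of ptenb (LOC110491376), the lipid phosphatase that opposes phosphoinositide kinases, were 64.3 ± 16.1 CPM at 3 dpf and 259 ± 22.8 CPM at 1 dpf.

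Libraries that the rule did not use allow tests, and the first question was whether the animal excess of the members was already there in the egg. At 0 hpf, 206 of the 255 members were higher in A than in E and 0 lower (edgeR quasi-likelihood F-test, Benjamini-Hochberg adjusted p under 0.05), where 32% of 21799 genes tested were called higher and 32% lower. The members' median fitted log2 difference was 0.69, against -0.01 over all genes. Of the 4962 other tested genes with animal excess at 1 dpf, 89.7% were called higher, with a median of 1.12, and 80.8% of the members. At 1 hpf, 191 members were called higher in A and 0 lower, against 27.6% and 24.9% of 21644 genes, with a median of 0.74. Of the 4974 other genes with animal excess at 1 dpf that were tested at 1 hpf, 87.1% were called higher, and 74.9% of the members. Of the members, 168 were called higher in A at both stages, which is 81.6% of the 206 and 88% of the 191. This overlap was counted for the members only, so it is not shown to be particular to them. The 1 hpf comparison rests on 2 replicates, with 120 members called without replicate 1, 102 without replicate 3, each with the remaining replicate taken to vary like the other stages, and 90 without the replicate term. Under library totals in place of TMM, the split of all genes called was 61.1% higher in place of 49.9% at 0 hpf, and 65.6% in place of 52.5% at 1 hpf. The median difference of all genes was then 0.18 at 0 hpf, 0.24 at 1 hpf, 0.32 for B minus D at 1 dpf and 0.21 at 3 dpf. The counts of 0 in the opposite direction, here and in the comparisons between B and D at 1 dpf and between stages, were also 0 at an unadjusted p under 0.05 and by DESeq2.

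Ppme1 (LOC110533794), a methylesterase of protein phosphatase 2A, had the smallest adjusted p at 0 hpf, with 66.3, 70.4 and 67.3 CPM in A and 10.7, 16.2 and 14.4 CPM in E (log2 2.10, SE 0.16, adjusted p = 9.55e-09). The actin-severing gene cfl1 (LOC110533964) had 149, 143 and 163 CPM in A and 34.7, 49.97 and 53.5 CPM in E (log2 1.53, SE 0.12, adjusted p = 1.09e-08). Arfgef1 (LOC110508767), an activator of Arf GTPases, was at 1.11 (SE 0.09) on the log2 scale, and foxr1, a forkhead factor whose maternal product zebrafish need for early survival, at 1.51 (SE 0.14). In each of these 4 genes the lowest A value lay above the highest E value. At 1 hpf the first were si:ch1073-416j23.1 (171 and 95.4 CPM in A, 42.2 and 30.5 CPM in E, replicates 1 and 3, log2 1.61, SE 0.16, adjusted p = 1.56e-05), the tent5c copy LOC110520418 at 1.35 (SE 0.15), npm2b (LOC110509616), an oocyte histone chaperone, at 1.46 (SE 0.18), and cyb5b (LOC110506515), a cytochrome b5 of the mitochondrial outer membrane, at 1.48 (SE 0.19).

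The second question was whether the change between stages reached inward, which sections B and D answer with libraries of their own, although cut from the same replicates as A and E. At 1 dpf, 200 of 255 members were higher in B than in D and 0 lower, against 28.6% and 26.8% of 22141 genes tested, with a median log2 of 0.61. Of the 5008 other genes with animal excess at 1 dpf, 84.8% were called higher, with a median of 0.96, and 78.4% of the members. The slope from B to D at 1 dpf is thus not particular to the members. At 3 dpf, 3 members were higher in B and 6 lower, against 21.8% and 13.8% of 22380 genes, and the members' median was -0.04. Of the 5006 other genes with animal excess at 1 dpf that were tested at 3 dpf, 52.3% were still higher in B, with a median of 0.73. Those genes were kept out of the members by their R at 3 dpf in the same replicates, so the rule itself favours this difference. The same limit holds for the comparisons with these genes between the stages. The members called at 3 dpf were 0 higher and 2 lower without 3 dpf replicate 1, 0 higher and 1 lower without replicate 2, and 1 higher and 9 lower by DESeq2. Under library totals the balance was turned, with 9 higher and 2 lower. The difference between the stages was tested in 1 fit of all 55 libraries. B minus D was lower at 3 dpf than at 1 dpf for 105 members and higher for 0, where 3.71% of 23458 genes were called lower and 9.14% higher, with a median of -0.66 for the members, -0.23 for the 5008 other genes with animal excess at 1 dpf and 0.09 over all genes. Without replicate 3 of 1 dpf, the replicate with the steepest slope, 48 members were called, and without the replicate term 36. Under library totals the share of all calls that were higher was 71.1% at 1 dpf, 73.5% at 3 dpf and 49.6% for the difference, in place of 51.6%, 61.3% and 71.1%.

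The 4 genes with the smallest adjusted p for this change were cfl1, foxr1, si:ch1073-416j23.1 and katnbl1. Fbxo34 changed by more than each of them, at -1.85 (SE 0.37), and boka was at -1.50 (SE 0.31). Cfl1 had 69.8, 68.2 and 70.4 CPM in B and 73.4, 68.8 and 75.2 CPM in D at 3 dpf, and 162, 122.9 and 199 CPM in B and 51.2, 67.3 and 47.4 CPM in D at 1 dpf (difference of differences, log2 -1.45, SE 0.21, adjusted p = 1.77e-05). The values of B and D overlapped at 3 dpf and did not at 1 dpf. Foxr1 had 26.4, 23.6 and 24.4 CPM in B and 17.4, 20.1 and 22.8 CPM in D at 3 dpf, and 68.9, 74.5 and 74.5 CPM in B and 15.96, 24.97 and 16.3 CPM in D at 1 dpf (log2 -1.56, SE 0.23, adjusted p = 2.37e-05). Si:ch1073-416j23.1 changed by -1.41 (SE 0.23) and katnbl1 (LOC110529308), a protein related to the microtubule-severing katanin, by -1.49 (SE 0.26). At 1 dpf the steepest slopes from B to D by adjusted p were those of fbxo34 at 1.55 (SE 0.11), si:ch1073-416j23.1 at 1.64 (SE 0.12), foxr1 at 1.66 (SE 0.15) and cyb5b at 1.57 (SE 0.15).

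At 3 dpf the few calls went both ways, and the genes called lower in B included boka (log2 -0.56) and a gene without a name. Traf4a had 28.01, 31.9 and 32.3 CPM in B and 58.7, 50.1 and 56.04 CPM in D (log2 -0.97, SE 0.18, adjusted p = 0.00057), with no overlap. Btg2 (LOC110528374), an antiproliferative protein that binds the mRNA deadenylase complex, was at -0.59 (SE 0.15), katnbl1 at -0.59 (SE 0.18) and plagx (LOC110492282), a zinc finger protein, at -0.63 (SE 0.21). In the other direction were snapc4 (LOC110525339), a subunit of the complex that transcribes small nuclear RNA genes, at 0.63 (SE 0.20), pi4k2a (LOC110499337), a lipid kinase of endosomes, at 0.49 (SE 0.18) and zufsp (LOC110534567), a deubiquitinase, at 0.69 (SE 0.26). Traf4a passed the test under every alternative run, and btg2, katnbl1, plagx, snapc4, pi4k2a and zufsp each lost it under at least 1.

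Section by section, members were called as changed between the stages in B and not in C or D. In section B, 93 members were lower at 3 dpf than at 1 dpf and 0 higher, against 2.85% and 5.3% of 23066 genes tested, with a median log2 of -0.77, against -0.42 for the other genes with animal excess at 1 dpf and -0.04 over all genes. All 255 fitted differences in B were below 0. The count called was smaller without any 1 of the replicates, at 13, 27 and 51 members without 3 dpf replicates 1, 2 and 3, and at 21, 39 and 41 without 1 dpf replicates 1, 2 and 3. In sections C and D, 0 members and 0% of 21966 and of 21502 genes tested were called in either direction, by edgeR and by DESeq2. At an unadjusted p under 0.05, 3 members were lower and 1 higher in C, and 3 lower and 1 higher in D, among 383 lower and 328 higher genes in C and 312 and 191 in D. The members' medians there were -0.05 in C and 0.01 in D. Under library totals, 52.3% of all genes called in B were higher in place of 65%. Jag1a (LOC110486059), a Notch ligand, had 68.2, 65.6 and 59.4 CPM in B at 3 dpf and 159.6, 145 and 162 CPM at 1 dpf (log2 -1.20, SE 0.14, adjusted p = 0.00187), without overlap. In B, foxr1 fell by 1.48 (SE 0.17), trim37 (LOC110537545), a ubiquitin ligase, by 0.98 (SE 0.15) and fbxo34 by 1.85 (SE 0.29) on the log2 scale. Marker sums in section B, which are levels of RNA and not counts of cells, also differed between the stages. Those of the yolk syncytial layer were higher at 3 dpf, as given above, and those of the deep cells were 1408 to 2012 CPM at 3 dpf and 571 to 774 CPM at 1 dpf. Markers of the enveloping layer summed in B to 223 to 247 CPM at 3 dpf and 233 to 357 CPM at 1 dpf. Those of primordial germ cells summed to 709 to 862 CPM at 3 dpf and 479 to 558 CPM at 1 dpf. The part of any change of composition in the members' lower share of B was not tested.

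**Figure D4:**
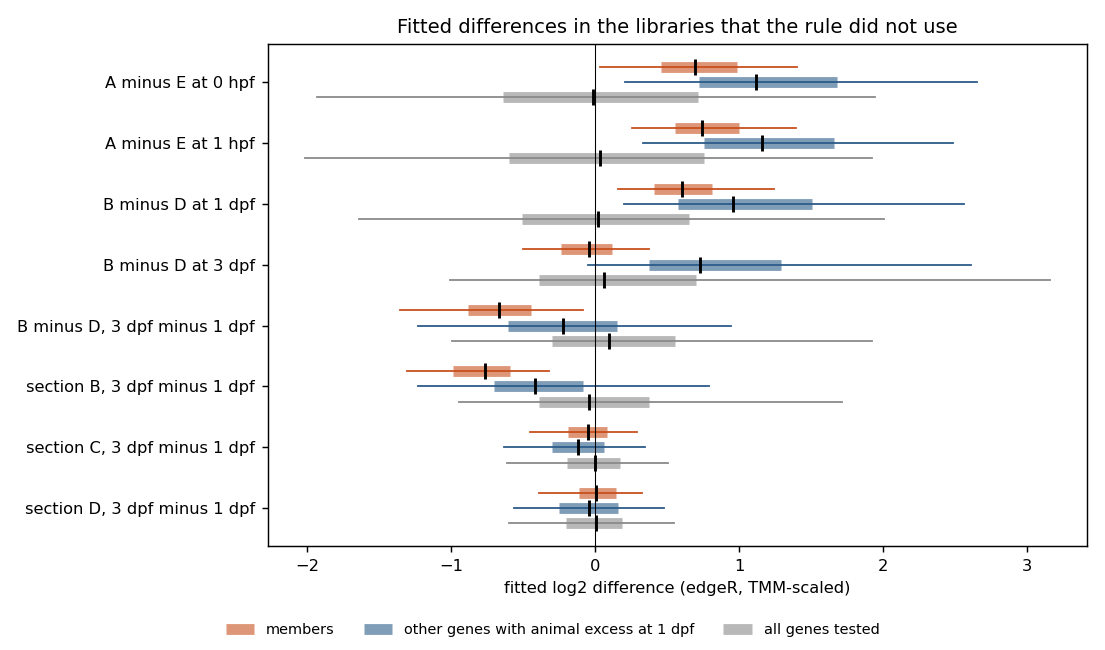
Fitted log2 differences from edgeR (horizontal axis) in the 8 comparisons of libraries not used to choose the members, for the members (orange), the other genes with animal excess at 1 dpf (blue) and all genes tested (grey). Ticks are medians, thick bars quartiles and thin bars run from the 5th to the 95th percentile; the members' medians are 0.69, 0.74 and 0.61 in the first 3 comparisons, -0.66 for the change of B minus D and -0.77 in section B.

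The members came from many processes. Of 190 named members, 63 fell in 1 or more of 27 gene lists, and each count below stands beside the number of listed genes that met the 1 dpf conditions, where 4.85% of all such genes were members. The counts called in a list are to be read beside the shares called among all 255 members, which were 80.8% higher in A at 0 hpf, 78.4% higher in B than in D at 1 dpf and 36.5% lower in B at 3 dpf than at 1 dpf, and among all genes tested, which were 32%, 28.6% and 2.85%. Among regulators of maternal RNA, zar1 (LOC100136720), an oocyte RNA-binding protein that zebrafish need to build the egg, was the only member of 6 such genes in the oocyte list. Zar1 had 7.62, 4.35 and 1.67 CPM in A at 3 dpf and 24.9, 26.2 and 32.5 CPM at 1 dpf, and its slope from B to D fell by 1.18 (log2, SE 0.34) between the stages, a change that passed the test. Its A minus E at 0 hpf was 0.29 (SE 0.17), which did not pass. Rbpms2b (LOC110526773), an RNA-binding protein of the zebrafish ovary, was 1 member of 11 in the germ plasm list and had 11.7, 10.7 and 12.8 CPM in A at 3 dpf and 47.7, 39.3 and 58.7 CPM at 1 dpf. Of 53 genes of mRNA decay and translational control, 3 were members, among them samd4a (LOC110505226), the vertebrate Smaug, and btg2. Samd4a and btg2 were higher in B than in D at 1 dpf, by 0.40 and 0.48 on the log2 scale, and both fell in B between the stages, by 1.04 and 1.099.

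Signalling and its regulators gave 7 members of 131 kinases, phosphatases and other signalling genes and 6 of 89 regulators of small GTPases. Of the first list, 7 of 7 were higher in A at 0 hpf (all members 80.8%, all genes 32%), with log2 values of 0.42 to 2.10, among them mapkbp1, a scaffold of the JNK pathway (1.98), the TGF-beta receptor tgfbr2b (LOC110496033, 1.18) and the AMP-activated kinase subunit prkag2a (LOC110530403, 0.42). Tgfbr2b had 10.01, 9.49 and 11.7 CPM in A at 3 dpf and 51.1, 55.8 and 80.7 CPM at 1 dpf. Of the GTPase regulators, 6 of 6 were higher in A at 0 hpf, and 5 of 6 fell in B between the stages (all members 36.5%, all genes 2.85%). Rassf3 (LOC110490224), a Ras-association protein, had 40.7, 32.4 and 33.7 CPM in A at 3 dpf and 238, 249 and 228 CPM at 1 dpf. The Rap exchange factor rapgef2b (LOC110488939) was 5.06-fold lower in A at 3 dpf. Boka was the member of 31 genes in the list of apoptosis and stress and plk3 that of 38 in the list of the cell cycle.

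Protein turnover and traffic gave 7 members of 127 ubiquitin ligases and deubiquitinases and 5 of 100 genes of secretion and membrane traffic. Besides fbxo34 and trim37, the first included usp31 (LOC110486323), trim23 (LOC110523870) and ube2kb (LOC110504905), which were 4.56-fold, 4.997-fold and 4.27-fold lower in A at 3 dpf. Of the 7, 6 were higher in A at 0 hpf (all members 80.8%, all genes 32%) and 3 fell in B (36.5% and 2.85%), so both counts were close to those of the members as a whole. The traffic list held snx5, the retromer subunit vps26a, the Rab GTPases rab8a and rab9a, and snapc4, which matched that list by its spelling only. Rab8a (LOC110524213) had 44.6, 35.6 and 40.8 CPM in A at 3 dpf and 232, 207 and 233.7 CPM at 1 dpf, and in E 108, 136 and 106 CPM at 3 dpf and 105, 124 and 83.7 CPM at 1 dpf. Of the 5, 5 were higher in A at 0 hpf (all members 80.8%, all genes 32%) and in B over D at 1 dpf (78.4% and 28.6%). The 1 that fell in B between the stages (36.5% and 2.85%) was snapc4, so none of the genes of traffic proper was called there.

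Solute carriers and pumps gave the most members of any list, 10 of 95, and 10 of 10 were higher in A than in E at 0 hpf, by 0.42 to 1.47 on the log2 scale (all members 80.8%, all genes 32%). Of the 10, 7 were higher in B than in D at 1 dpf (78.4% and 28.6%) and 0 at 3 dpf (1.18% and 21.8%), and 2 fell in B between the stages (36.5% and 2.85%). They include slc44a4, slc25a46 and slc9a1b and 2 copies of slc25a28, a mitochondrial iron carrier. The mitochondrial list, which shares 4 of its 5 members with that of the carriers, had 89 genes under the 1 dpf conditions and adds ndufaf3, an assembly factor of a respiratory complex. Atp5l, a subunit of ATP synthase and in both lists, had 6.53, 4.75 and 4.82 CPM in A at 3 dpf and 26.2, 23.99 and 34.5 CPM at 1 dpf. Of 121 genes of motors and the cytoskeleton, 5 were members, among them the kinesin kif21a (LOC110502363), the microtubule protein map10 and the centriole protein cep97 (LOC110501339). Their levels in A at 3 dpf were 4.64-fold, 4.87-fold and 4.66-fold lower.

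Nuclear regulators included 5 of 145 chromatin genes, 5 of 69 zinc finger genes and 1 of 55 genes of nuclear transport, the importin ipo13. The chaperone list gave 3 members of 50. The class IIa histone deacetylases gave 3 of the 5 chromatin genes, hdac7a (LOC110528499) and 2 copies of hdac4, while katnbl1 matched by its spelling only and ncoa4 is a nuclear receptor coactivator that also carries ferritin to lysosomes. Hdac7a had 8.704, 7.52 and 10.2 CPM in A at 3 dpf and 74.7, 74.7 and 100.1 CPM at 1 dpf. The hdac4 copy LOC110528724 had 7.398, 5.54 and 11.7 CPM at 3 dpf and 60.5, 64.1 and 66.9 CPM at 1 dpf. Of the 5 genes in the chromatin list, 4 were higher in A at 0 hpf (all members 80.8%, all genes 32%), katnbl1 among them. Likewise 4 fell in B between the stages (36.5% and 2.85%), again with katnbl1 among them. The copy LOC110497004 was not called at 0 hpf, with a log2 of -0.19 (SE 0.25), where it had 26.2, 28.6 and 30.9 CPM in A and 27.9, 46.7 and 17.8 CPM in E, and its R was -0.11, 1.17, 1.00 and -1.59 from the earliest to the latest stage. It was the only member with an R below 0 at 0 hpf under library totals, while under TMM scaling and under DESeq2 size factors 12 members were below 0 there. The zinc finger genes znf592, znf516 (LOC110496329), zbtb18 and znf618 (LOC110509813) were 4.12-fold, 4.31-fold, 4.14-fold and 3.66-fold lower in A at 3 dpf. In the chaperone list, dnajc15, hspbap1 and dnajb1a (LOC110486721) were 3.302-fold, 4.52-fold and 3.29-fold lower there, and hspbap1 matched that list by its spelling only. Apol1 (LOC110530582) was the member of 19 genes of lipid and yolk metabolism.

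Several lists of basic cell machinery held no member. None of 83 ribosomal protein genes, 61 translation factors, 120 splicing and RNA processing genes, 45 proteasome genes, 67 genes of DNA replication and repair and 30 aminoacyl-tRNA synthetases that met the 1 dpf conditions became a member, and none of 70 genes of genome activation. The lists of adhesion and matrix (28 such genes), vegetal and dorsal determinants (9) and zygotic patterning (8) also held 0. With 4.85% of all such genes members, 0 in lists this short is near the background, and so it is for the 30 synthetases and the 45 proteasome genes. Whether 0 is low in the longer lists was not tested. Over the measured genes, the median log2 change in A, 3 dpf minus 1 dpf, was 2.89 for ribosomal proteins, 1.96 for zygotic patterning, 1.11 for translation factors, 0.91 for splicing, 0.41 for the proteasome and 0.35 for the determinants. It was 0.19 for adhesion and matrix, 0.09 for genome activation, 0.0067 for the synthetases and -0.46 for DNA replication and repair, against -0.26 over all 13404 named features. The lists without a member thus did not all have higher levels in A, and these medians come from the same A libraries that chose the members.

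Duplicate copies that are not members themselves had animal excess at 1 dpf about as often as other genes, and their levels in A at 3 dpf were lower by a larger median. Of the members, 92 carry a name that at least 1 other feature carries too, under 86 names, and in 6 of these names 2 copies are members (grb2a, hdac4, slc25a28, tent5c, wdtc1 and zufsp). Among 87 other copies at 10 CPM or more in A at 1 dpf, 30 met the animal threshold at 1 dpf, 46 had an R between the thresholds and 11 were already vegetal. The 30 are 34.5% of the 87, where 35.7% of the 14759 genes at that level had animal excess at 1 dpf. Copies that are members, all with animal excess at 1 dpf by the rule, are left out of the 87 but kept in the 14759. The share of the copies is therefore lower than it would be with them. R was lower at 3 dpf than at 1 dpf in 76 of the 87, which is 87.4% against 67.0% of the 14759 genes, and 39 were vegetal by the threshold at 3 dpf (44.8% against 33.2%) and 10 animal (11.5% against 30.8%). These shares are a description, since copies can share reads with the members. The median log2 change in A was -1.29 for the copies, -2.14 for the members that have them and -0.46 for the 14759 genes. The other copy of klf6a had an R of -2.50 at 3 dpf and 0.05 at 1 dpf, with a log2 change in A of -2.50, against -3.42 for the member. The other copy of ppme1 likewise had an R of -2.95 at 3 dpf and -0.01 at 1 dpf, with -2.88 in A.

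Other copies went different ways. The second copy of hook1 was vegetal throughout, with an R of -2.20, -2.54, -2.07 and -3.14 from 0 hpf to 3 dpf, and so was that of plk3, at -2.22, -1.89, -1.77 and -2.52. The second copy of tyk2, a Janus kinase, stayed animal, with an R of 2.47 at 3 dpf and 2.27 at 1 dpf, where the member had -1.15 at 3 dpf and 0.85 at 1 dpf. Of the other copies of cfl1, LOC110504986 had an R of 2.82 at 3 dpf and 2.55 at 1 dpf, and LOC118936299 had -0.73 at 3 dpf and -1.81 at 1 dpf. The sources do not state how reads that match more than 1 copy were counted, so the level of a single copy is uncertain to that extent.

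**Figure D5:**
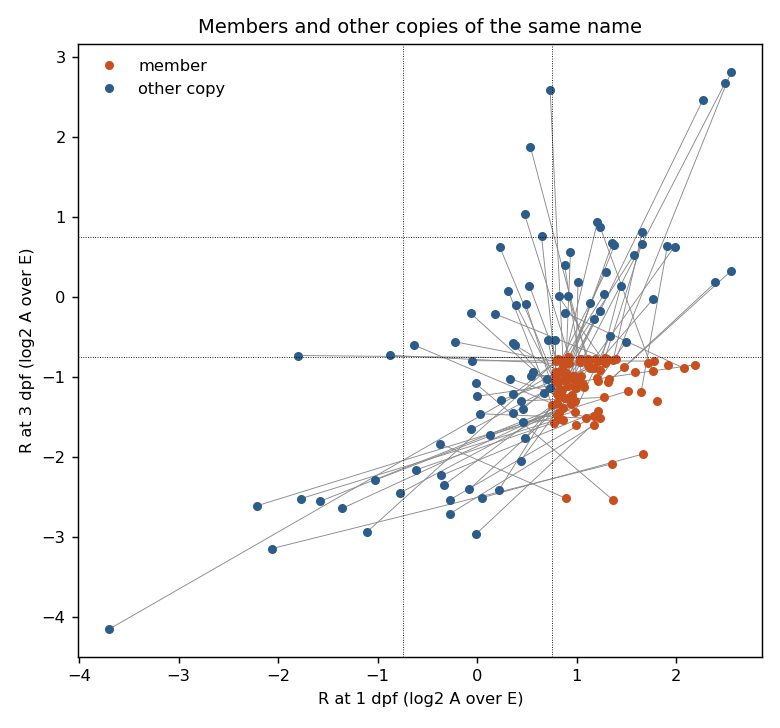
R at 1 dpf (horizontal axis) and at 3 dpf (vertical axis) of the members with a duplicate copy (orange) and of their other copies at 10 CPM or more in A at 1 dpf (blue), joined by lines. Dotted lines mark the thresholds of 0.75 and -0.75; the other copies spread from -3.69 to 2.55 at 1 dpf, and 76 of 87 have a lower R at 3 dpf.

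The edges of the set are not gaps. Just inside the 1 dpf threshold lay paip1 (LOC110525931), a regulator of translation initiation, with an R of 0.7513, and just outside a gene without a name at 0.7486. At the 3 dpf threshold, ccdc142 had -0.7502 and kif7, a kinesin of Hedgehog signalling, -0.7505, while trim32 had -0.7493 and myot -0.7463 and were left out. At the level threshold, plaub had a mean of 10.2 CPM in A at 1 dpf and was included, and afap1l1b, at 9.95 CPM, was not. The number of members was 264, 273 and 266 when replicate 1, 2 or 3 was left out at both stages, of which 208, 191 and 173 were among the 255.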

How the data were processed

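Total RNA of 5 sections of trout eggs and embryos at 4 stages was sequenced after removal of ribosomal RNA, from the same mass of RNA per section and with a directional kit, per the labels' protocols. The authors deposited a table of raw read counts for 23471 features in 55 libraries, and the submitters' processing notes name fastp 0.23.4, STAR 2.7.11, HTSeq 2.0.4 and DESeq2. The genome build, the strand setting and the treatment of reads with several matches are not stated in labels or headers. Of 60 labelled samples, the 5 of 1 hpf replicate 2 were not analysed here.

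Samples were grouped by the labelled time and section. CPM and R were computed from the deposited counts with Python 3.11.15. Tests used edgeR 4.0.16 in R 4.3.3 (TMM, filterByExpr with a minimum count of 10, quasi-likelihood F-tests, Benjamini-Hochberg at 0.05 over all genes tested), and all 255 members passed the filter in all 8 comparisons. Within a stage the replicate was a term, since sections with 1 number come from 1 sectioned sample. Section B, C and D comparisons between stages had no such term. There, same-numbered libraries of 3 dpf and 1 dpf deviated together (correlations 0.18 to 0.77, different numbers -0.65 to 0.57). Numbers 1 and 2 also deviated together (0.17 to 0.57), and both went against number 3 (-0.65 to -0.21). The fit with the term was therefore run as well. Other alternatives were library totals, no filter, DESeq2 1.42.0, other scalings, a pseudocount of 0.1 CPM, the median of R over replicates and leaving out each replicate. The code was tested on simulated data.

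The members and the gene lists, which match symbols by pattern, were chosen with earlier results of these data known. Genes were named by a rule: the 12 named members with the largest decrease in R, the 6 highest in A at 1 dpf and in E at 3 dpf, up to 4 per list, the 4 smallest adjusted p per comparison and direction, and the nearest to each threshold. Boka and fbxo34 in the B minus D comparisons at 3 dpf and between stages, the hdac4 copy with a negative R at 0 hpf and the duplicate copies were chosen after their values were seen.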

Additional observations from a re-analysis of the deposited data

Results flagged for a closer look

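The change of the B minus D difference between 3 dpf and 1 dpf was itself tested, in 1 edgeR fit of all 55 libraries, and differed between the stages for 105 members, all of them lower at 3 dpf. Of all 23458 genes tested, 3.71% were called lower and 9.14% higher, and of the 5008 other genes with animal excess at 1 dpf 11.2% were called lower. The rule used A and E of the same replicates, which favours a fall in the members. Leaving out a replicate, 48 to 93 were called, and fewer without the replicate term. The 4 members with the smallest adjusted p were cfl1 at -1.4465, foxr1 at -1.5624, si:ch1073-416j23.1 at -1.408 and katnbl1 at -1.4879 on the log2 scale, each listed because its slope from B to D differed between the stages. No group had enough replicates for a search for single outlying samples.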

How the results depend on the processing

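Under the alternatives run, no call of a named gene was reversed, but the balance of members called for B minus D at 3 dpf turned under library totals. Counts of members stayed within 1.5 times the main count in 117 cases and moved further in 24. Among named genes, the call was lost in 23 cases, all for B minus D at 3 dpf. The number of members was 78 under TMM scaling, 62 under DESeq2 size factors and 264 to 273 leaving out 1 replicate number. At 0 hpf, 159 to 205 members were called higher and 0 to 1 lower leaving out a replicate. At 1 hpf, 90 were called higher with no replicate block and 102 to 120 leaving out a replicate. For B minus D at 1 dpf the range was 152 to 170. For B minus D at 3 dpf, the members called higher were 9 under library totals, 1 with no replicate block, 1 by DESeq2 and 0 to 4 leaving out a replicate, and those called lower were 2 under library totals, 3 with no replicate block and 1 to 8. For the change of B minus D, 36 were called lower with no replicate block and 48 to 93 leaving out a replicate. In section B, 13 to 51 were called lower leaving out a replicate and 102 with the replicate block across stages, and in sections C and D 0 under every alternative run. The paired fits changed no other count of members by over 1.5 times.

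Over all genes, counts moved by over 1.5 times for 1 hpf with no replicate block (3191 higher, 2974 lower) and without replicate 3 (3136 and 3536), for B minus D at 1 dpf under library totals (3697 lower), and for B minus D at 3 dpf with no replicate block (1882 lower) and without replicates 1 and 2 (3034 higher and 1480 lower, and 1950 lower). The change of B minus D gave 690 higher and 224 lower genes with no replicate block, 1486 lower under library totals, 1243 higher and 309 lower without 1 dpf replicate 3, and 520 lower without 3 dpf replicate 2. Section B gave 2165 higher and 1083 lower genes by DESeq2, and 330 to 966 higher and 75 to 539 lower leaving out a replicate. The cause of these shifts was not tested. The shallowest library, where 3 counts were worth 2.75 CPM, was section D of 3 dpf replicate 1. This limits what can be said of B minus D at 3 dpf for genes near that level. The A libraries of 3 dpf were deeper, at 4.60, 2.53 and 5.40 M counts, but low values there, such as that of hook1 in replicate 2, still rest on few reads.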
